A study of Mus musculus with 6 samples.

Results

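A set of 9 transcription factor genes that keep T cells in a resting or central state was followed in mouse regulatory T cells with and without SREBP2. The genes Tcf7, Lef1, Klf2, Klf3, Foxo1, Foxp1, Satb1, Bach2 and Id3 were taken by symbol from a deposited table of 24421 genes, and all 9 were among the 11932 genes with enough counts to be tested. Regulatory T cells (Tregs) restrain immune responses and depend on Foxp3, their lineage factor, and SREBP2, encoded by Srebf2, activates cholesterol synthesis and uptake genes. The Tregs came from spleen and lymph nodes. The 3 control libraries, Srebp2WT replicates 1, 3 and 5, carried the genotype Srebp2WT/WT-Foxp3YFPCRE+/+. The 3 deficient libraries, Srebp2cKO replicates 6, 7 and 8, carried Srebp2FL/FL-Foxp3YFPCRE+/-, that is, floxed Srebf2 alleles deleted by a Cre recombinase made, with a yellow fluorescent protein, from the Foxp3 locus. Both genotypes carried that Cre, at a Foxp3 locus on chromosome X, but its allele count differed between them. An effect of Cre allele count and an effect of SREBP2 loss therefore cannot be told apart. Whether all Tregs of the deficient libraries had made Cre is not stated, as no sort gate was given. The labels do not say whether each library is a separate animal, nor the animals' age or the sort gate, so the p-values below reflect just the spread among these libraries, which may be technical.

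Resting T cells are held out of the cell cycle, kept alive and kept circulating through lymphoid organs by an active transcriptional program. TCF1 (Tcf7) and LEF1 (Lef1) are high mobility group factors that pair with beta-catenin or with Groucho corepressors. KLF2 (Klf2) is a zinc finger factor that sustains the receptor S1pr1, and FOXO1 (Foxo1) is a forkhead factor that is excluded from the nucleus when AKT or SGK kinases phosphorylate it. When Tregs are activated by antigen they lower many of these genes and take up effector factors such as Prdm1.

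The libraries held 13918321 to 17249898 counts. Srebf2 held 2548 to 3043 counts in the Srebp2WT libraries and 183 to 197 in the Srebp2cKO libraries. The 7 defining genes of Tregs (Cd3e, Cd3d, Cd4, Foxp3, Il2ra, Ctla4 and Ikzf2) summed to 4383 to 4587 CPM (counts scaled to library size) in Srebp2WT and 4297 to 4440 in Srebp2cKO. Within that sum Il2ra rose (log2 fold change 0.41, edgeR adjusted p = 0.0101), while Ctla4 was at 0.23 and Ikzf2, the most abundant, at -0.26 (adjusted p = 0.0897 and 0.0645). Some defining markers of other cells were near 0, with at most 2 counts of Ms4a1, 5 of Lyz2, 14 of Cd8a and 0 of Ncr1 in any library. Other markers on the same lists were not, and reached 769 counts for Cd74, 1299 for Cybb, 137 for Cd8b1, 1085 for Xbp1 and 3721 for Pecam1. In bulk RNA, fewer cells of a type and less RNA per cell cannot be told apart.

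For 7 of the 9 factors every Srebp2cKO library lay above every Srebp2WT library, and for Id3 every Srebp2cKO library lay below. Klf2 and Foxp1 rose, by 38.0% and 29.9%, and were the 2 members that passed the test. Changes were modest throughout, from a log2 fold change of -0.42 for Id3 to 0.53 for Satb1, and the median over the 9 was 0.34, against 0.00 over all genes tested. The test was the quasi-likelihood F test of edgeR, Srebp2cKO minus Srebp2WT, called at an adjusted p under 0.05. That call was made for 6.61% of all genes tested, 2.37% higher and 4.24% lower. Complete separation upward was seen in 16.0% of all genes tested and complete separation downward in 15.5%. With all libraries, 8 of the 9 had an unadjusted p under 0.05, as had 3471 of the 11932 genes tested. Without Srebp2WT replicate 1, and without Srebp2WT replicate 3, 0 members passed the adjusted test.

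**Figure D1:**
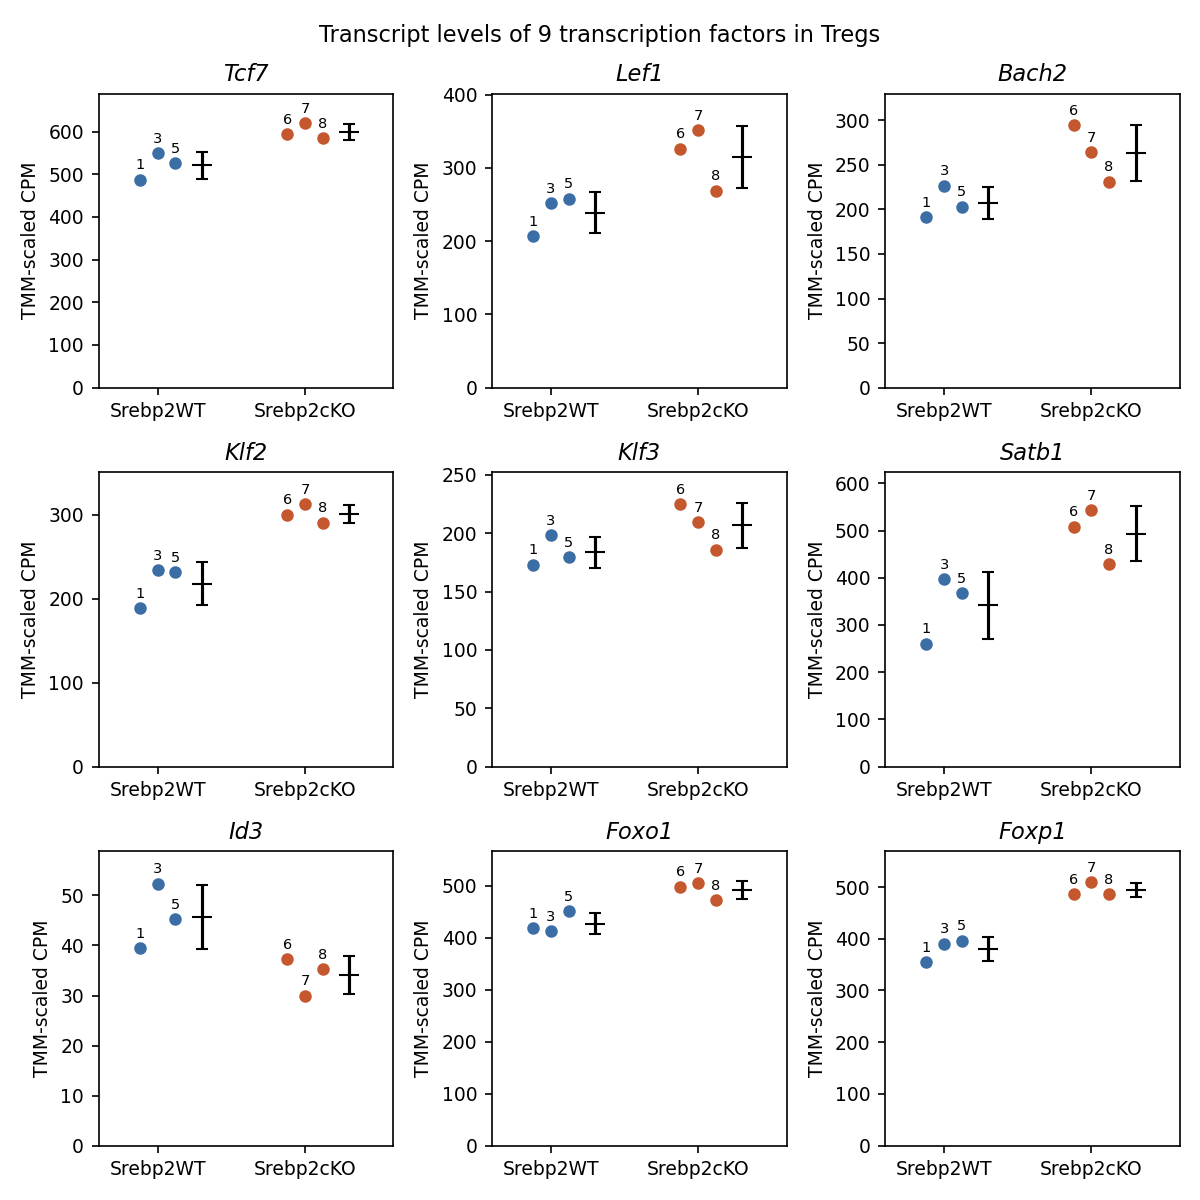
Level of each factor in every library, as CPM with TMM scaling (y axis from 0); points are libraries labelled by replicate number, blue for Srebp2WT and orange for Srebp2cKO, with the mean and SD of 3 libraries in black. Klf3 is the 1 factor whose genotypes overlap, and Id3 is the 1 factor that lies lower in Srebp2cKO.

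The promoter windows of the members were searched for short letters bound by SREBP and by the members' own families. RefSeq (GRCm38.p6) gave 19 windows for the 9 genes, each running from 250 bases before to 50 bases after a transcription start, and some windows of 1 gene overlap. The 3 windows below were chosen after the search. That of Klf2 is its only one in the table. That of Foxp1, the other member that passed, is the 1 of its 3 windows with TCF/LEF letters. That of Tcf7 held letters of 3 of the families searched. Capitals mark the letters searched.

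Klf2 at chr8:72318812-72319111, plus strand: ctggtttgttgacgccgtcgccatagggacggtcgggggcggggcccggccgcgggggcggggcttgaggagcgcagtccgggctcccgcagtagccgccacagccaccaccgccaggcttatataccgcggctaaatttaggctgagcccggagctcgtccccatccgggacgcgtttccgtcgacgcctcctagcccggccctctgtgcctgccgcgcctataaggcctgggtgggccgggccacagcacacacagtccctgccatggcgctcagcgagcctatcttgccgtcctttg
Foxp1 at chr6:99266466-99266765, minus strand: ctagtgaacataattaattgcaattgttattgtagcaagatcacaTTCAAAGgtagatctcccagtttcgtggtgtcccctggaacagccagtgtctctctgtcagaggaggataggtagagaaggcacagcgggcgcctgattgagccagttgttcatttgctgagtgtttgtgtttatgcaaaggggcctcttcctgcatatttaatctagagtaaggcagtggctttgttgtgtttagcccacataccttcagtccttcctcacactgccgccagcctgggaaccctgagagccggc
Tcf7 at chr11:52282546-52282845, minus strand: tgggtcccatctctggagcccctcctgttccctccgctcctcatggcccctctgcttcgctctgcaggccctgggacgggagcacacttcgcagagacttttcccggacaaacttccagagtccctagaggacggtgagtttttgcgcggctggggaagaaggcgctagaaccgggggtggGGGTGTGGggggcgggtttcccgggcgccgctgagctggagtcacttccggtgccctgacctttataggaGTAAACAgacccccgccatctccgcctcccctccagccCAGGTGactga

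Matches were sought on both strands. The SREBP letters TCACNCCAC stood in 0 of the 19 windows, against 1.24% of 32851 windows over all genes, and among 5 windows of textbook SREBP targets they stood in 1, that of Hmgcs1. The FOXO letters GTAAACA, in 3.65% of all windows, stood in 1 member window, that of Tcf7 printed above. The same Tcf7 window held the KLF letters CCACACCC on the opposite strand, which 3.56% of all windows hold. The TCF/LEF letters CTTTGAT or CTTTGAA, in 8.65% of all windows, stood in the Foxp1 window printed above. The letters TGANTCAGC, of the kind that BACH2 binds with small MAF proteins, stood in 0 member windows and in 1.19% of all windows. The E protein letters CAGGTG or CAGCTG stood in 7 of the 19, in Foxp1, Lef1, Satb1 and Tcf7, and in 32.9% of all windows. The Klf2 window held none of the letters searched. Such matches describe these windows only and mark no bound site.

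Tcf7 and Lef1 encode the TCF1 and LEF1 factors of naive, memory and resting T cells. Tcf7 lies on the minus strand of chromosome 11 (52252371 to 52283014, GRCm38), and its libraries measured 487, 549.7 and 526 CPM with SREBP2 (replicates 1, 3 and 5) and 594, 619.9 and 585 CPM without it (replicates 6, 7 and 8). The genotypes did not overlap, but the highest Srebp2WT library and the lowest Srebp2cKO library were close. The change was 0.20 on the log2 scale, with an SE of 0.08 and a 95% interval from 0.03 to 0.37 (edgeR adjusted p = 0.116). Tcf7 did not pass under any of the 16 other settings tried, each listed by kind with the processing.

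Lef1 lies on chromosome 3 (131110471 to 131224356). Its libraries measured 207, 252 and 258 CPM with SREBP2 (replicates 1, 3 and 5) and 326, 351 and 269 CPM without it (replicates 6, 7 and 8). Srebp2cKO replicate 8 lay just above the Srebp2WT range, well below the other two of its genotype. The change was 0.40 on the log2 scale, with an SE of 0.11 and a 95% interval from 0.15 to 0.65 (edgeR adjusted p = 0.0611). Lef1 passed without that library (adjusted p = 0.0404). In the other fits that left out 1 library it did not pass (adjusted p of 0.0556 to 0.226). With the GC trend removed its log2 fold change was 0.32 (adjusted p = 0.107). The ratio of Lef1 to Tcf7 counts within a library, which needs no scaling, ran 0.425, 0.458 and 0.490 over the control replicates 1, 3 and 5 and 0.549, 0.567 and 0.460 over the deficient replicates 6, 7 and 8, and overlapped (exact two-sided permutation p = 0.2). Antisense exons of the gene model Gm43352 cover 13.7% of the exon length of Lef1, and those of Gm20402 cover 7.78% of that of Foxo1. A strand setting of the counts was not given in the sources used here.

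Klf2 and Klf3 are Krüppel-like zinc finger factors. KLF2 maintains lymphoid homing receptors, and KLF3 is a repressor that works with CtBP corepressors. Klf2 lies on chromosome 8 (72319033 to 72321656), and its libraries measured 189, 234 and 232 CPM with SREBP2 (replicates 1, 3 and 5) and 300.4, 313 and 291 CPM without it (replicates 6, 7 and 8). Every Srebp2cKO library was above every Srebp2WT library by a gap larger than the spread among the Srebp2cKO libraries. Klf2 rose from 218 ± 25.5 to 301 ± 11.0 CPM (mean ± SD, n = 3 libraries per genotype), a log2 fold change of 0.46 (SE 0.09, 95% interval 0.26 to 0.67, edgeR adjusted p = 0.0203). The call was lost without Srebp2WT replicate 1 (log2 fold change 0.37, adjusted p = 0.0754) and without Srebp2WT replicate 3 (0.52, adjusted p = 0.0534). Klf2 has a GC-rich transcript, and its log2 fold change was 0.75 (adjusted p = 0.00575) when a trend with GC content was removed from each library.

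Klf3, on chromosome 5 (64803388 to 64832901), measured 173, 198 and 179.6 CPM with SREBP2 (replicates 1, 3 and 5) and 225, 209.7 and 186 CPM without it (replicates 6, 7 and 8). The genotypes overlapped, with Srebp2cKO replicate 8 inside the Srebp2WT range. The change was 0.17 on the log2 scale, with an SE of 0.09 and a 95% interval from -0.03 to 0.37 (edgeR adjusted p = 0.230), so a rise of up to 1.29-fold lies within the interval. It was 0.07 with the GC trend removed (adjusted p = 0.673) and 0.11 without Srebp2cKO replicate 6 (adjusted p = 0.436). The ratio of Klf2 to Klf3 counts ran 1.09, 1.18 and 1.29 over the control replicates 1, 3 and 5 and 1.34, 1.49 and 1.56 over the deficient replicates 6, 7 and 8. The ratios did not overlap (exact two-sided permutation p = 0.1, the smallest that 3 against 3 allows, and 0.15 adjusted over 3 ratios).

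Foxo1 and Foxp1 are forkhead factors. FOXO1 drives Il7r and Klf2 in resting T cells, and FOXP1 restrains the exit of naive T cells from quiescence. Foxo1, on chromosome 3 (52268336 to 52353221), measured 418, 412 and 451 CPM with SREBP2 (replicates 1, 3 and 5) and 498, 505 and 472 CPM without it (replicates 6, 7 and 8). The genotypes did not overlap, and the spread within each was small. Its change was 0.20 on the log2 scale, with an SE of 0.07 and a 95% interval from 0.04 to 0.37 (edgeR adjusted p = 0.106), and it did not pass under any setting tried.

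Foxp1, on the minus strand of chromosome 6 (98925338 to 99522721), measured 354, 390.1 and 396 CPM with SREBP2 (replicates 1, 3 and 5) and 486, 509 and 487 CPM without it (replicates 6, 7 and 8). The 2 genotypes were far apart relative to their spread, and the Srebp2cKO libraries varied least of all 9 factors (coefficient of variation 2.70%). Foxp1 rose from 380.2 ± 22.5 to 494 ± 13.3 CPM, a log2 fold change of 0.38 (SE 0.07, 95% interval 0.21 to 0.54, edgeR adjusted p = 0.0202). The call was lost without Srebp2WT replicate 1 (adjusted p = 0.103), without Srebp2WT replicate 3 (0.0822) and without Srebp2cKO replicate 8 (0.0543), while the log2 fold change stayed between 0.33 and 0.41 over the 6 fits that left out 1 library. With the GC trend removed it was 0.26 (adjusted p = 0.0371). The ratio of Foxp1 to Foxo1 counts ran 0.847, 0.947 and 0.879 over the control replicates 1, 3 and 5 and 0.975, 1.01 and 1.03 over the deficient replicates 6, 7 and 8, without overlap (exact two-sided permutation p = 0.1, 0.15 adjusted over 3 ratios).

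Satb1, Bach2 and Id3 are a chromatin organizer, a repressor and an inhibitor of E proteins. SATB1 folds chromatin at T cell loci and is held low by Foxp3 in Tregs. Satb1, on the minus strand of chromosome 17 (51736187 to 51833290), measured 261, 396 and 367 CPM with SREBP2 (replicates 1, 3 and 5) and 508, 543 and 428 CPM without it (replicates 6, 7 and 8). It had the largest log2 fold change of the 9 and the widest spread among the Srebp2WT libraries (coefficient of variation 20.9%), with replicate 1 far below the other 2. The change was 0.53 on the log2 scale, with an SE of 0.15 and a 95% interval from 0.21 to 0.85 (edgeR adjusted p = 0.0550), and 0.37 without Srebp2WT replicate 1 (adjusted p = 0.156). With the GC trend removed the change was 0.41 (adjusted p = 0.112).

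BACH2 occupies sites of AP-1 factors and restrains effector genes such as Prdm1 in T cells. Bach2, on chromosome 4 (32238804 to 32586108), measured 192, 227 and 203 CPM with SREBP2 (replicates 1, 3 and 5) and 294, 264 and 231 CPM without it (replicates 6, 7 and 8). Srebp2cKO replicate 8 lay just above the highest Srebp2WT library, and the other 2 stood clear of it. The change was 0.34 on the log2 scale, with an SE of 0.10 and a 95% interval from 0.12 to 0.57 (edgeR adjusted p = 0.0649). Its antisense gene Bach2os held 2 to 8 counts per library, against 3001 to 4090 for Bach2.

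ID3 binds E proteins and keeps them off DNA, and with ID2 it is known to support Treg maintenance. Id3, on chromosome 4 (136143497 to 136145755), was the 1 member lower without SREBP2, at 37.2, 29.9 and 35.3 CPM in replicates 6, 7 and 8, against 39.5, 52.3 and 45.3 CPM in the control replicates 1, 3 and 5. The gap between the genotypes was small, from 37.2 to 39.5 CPM, and the gene held 464 to 812 counts per library, the fewest of the 9. The change was -0.42 on the log2 scale, with an SE of 0.12 and a 95% interval from -0.69 to -0.15 (edgeR adjusted p = 0.0626), and -0.28 with the GC trend removed (adjusted p = 0.139). Id3 passed with scaling to total counts alone (adjusted p = 0.0480) and without Srebp2cKO replicate 6 (adjusted p = 0.0445). In the other fits that left out 1 library it did not pass (adjusted p of 0.0754 to 0.225).

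In the main fit with all libraries, Lef1, Bach2, Satb1 and Id3 thus lay just short of the threshold. With the GC trend removed, their adjusted p ran from 0.0657 (Bach2) to 0.139 (Id3). At an adjusted p under 0.1 in edgeR, 6 members passed, 5 higher and 1 lower, where 15.9% of all genes tested passed. DESeq2 called the same 6 at an adjusted p under 0.05, where it called 12.2% of the 11467 genes to which it gave an adjusted p. Klf3, Tcf7 and Foxo1 passed by neither.

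**Figure D2:**
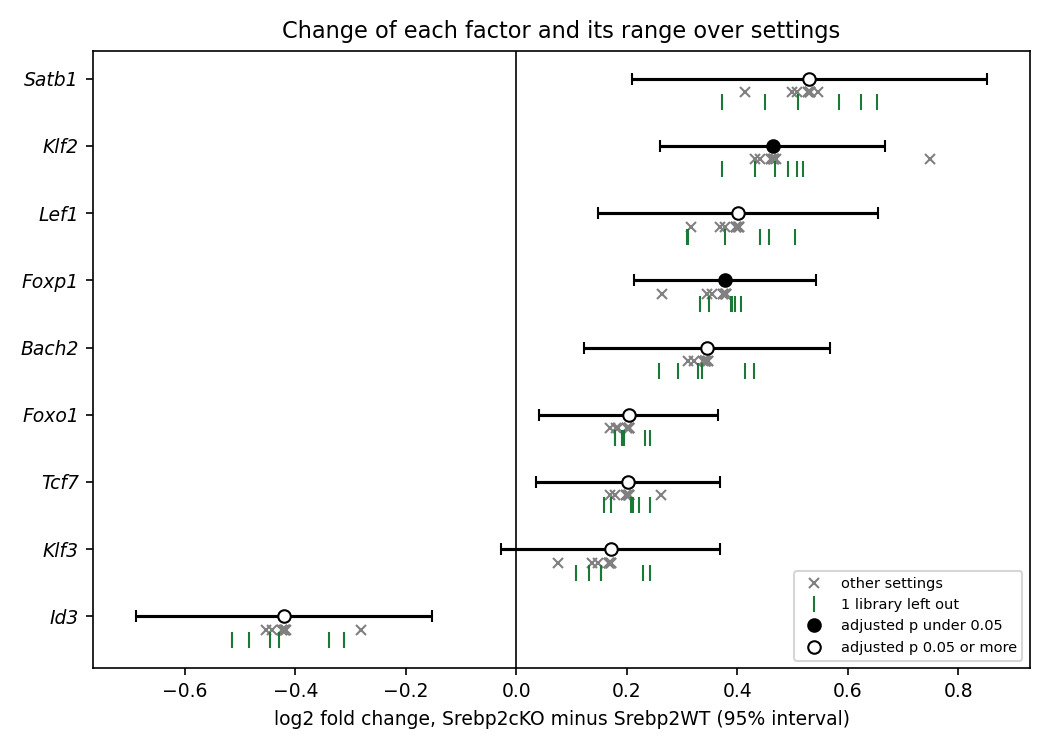
Log2 fold change of each factor (x axis, Srebp2cKO minus Srebp2WT) with its 95% interval; filled circles passed the edgeR test, crosses are other settings and green ticks are fits without 1 library. All values of a gene lie on its own side of 0, and the cross of Klf2 at 0.75 is the fit with the GC trend removed.

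Per kilobase of exon, Tcf7 was the most abundant of the 9 in both genotypes and Klf2 was next. Tcf7 ranged from 186 to 209 CPM per kb in control libraries and from 223 to 236 in deficient ones. Klf2 ranged from 102 to 127 and from 157 to 169 CPM per kb. Foxo1, the third, ranged from 47.5 to 52.0 and from 54.5 to 58.3 CPM per kb. These 3 were separated from one another and from the rest in all libraries of a genotype. Foxp1, Lef1, Id3, Bach2, Satb1 and Klf3 followed in Srebp2WT, at 27.6, 27.2, 25.5, 20.8, 17.9 and 16.3 CPM per kb, and each of these neighbours overlapped in range. In Srebp2cKO, Id3 was at 19.1 CPM per kb, below Bach2 (26.5) and Satb1 (25.9) and overlapping with Klf3 (18.4). The order after Klf2 depended on the length used. With the longest transcript in place of all exons, Lef1 followed Klf2 at 65.4 CPM per kb in Srebp2WT and 86.3 in Srebp2cKO. Satb1 came next at 54.7 and 79.0, but its range overlapped with those of Lef1 and Foxp1 in both genotypes.

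Within a genotype, the same libraries were low for most of the factors. Srebp2WT replicate 1 was the lowest of its genotype for 8 of the 9 factors, and for 35.4% of all genes tested, with a median deviation over the 9 of -0.11 log2 units from the genotype mean. The exception was Foxo1, lowest in replicate 3 (-0.05). Srebp2cKO replicate 8 was the lowest of its genotype for 7 of 9, and for 26.0% of all genes tested, with a median deviation of -0.06. The exceptions were Foxp1 and Id3, and Id3 was lowest in replicate 7 (-0.18). Whether the factors vary together was not tested. Summed markers of B cells and myeloid cells were highest in these same libraries within each genotype. B cell markers summed to 79.5, 56.4 and 56.8 CPM in the control replicates 1, 3 and 5, and to 28.9, 25.8 and 34.5 CPM in the deficient replicates 6, 7 and 8. Myeloid markers summed to 88.3, 56.3 and 53.9 CPM and to 37.1, 37.9 and 43.2 CPM in the same order. Of the 7 genes in each list, 3 never exceeded 5 counts (Ms4a1 and Pax5 among those of B cells, and Lyz2, Csf1r and Cd14), and Cd74 and Cybb gave most of the sums. Of the 4 B cell markers tested, Cd74, Cd79b and Cd22 fell by the edgeR test, and Cd79a was at a log2 fold change of 0.56 (adjusted p = 0.308). Of the 3 myeloid markers tested, Cybb fell, and Itgam and Cd68 were at 1.07 and 0.35 (adjusted p = 0.108 and 0.270). Their part in the differences was not tested.

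**Figure D3:**
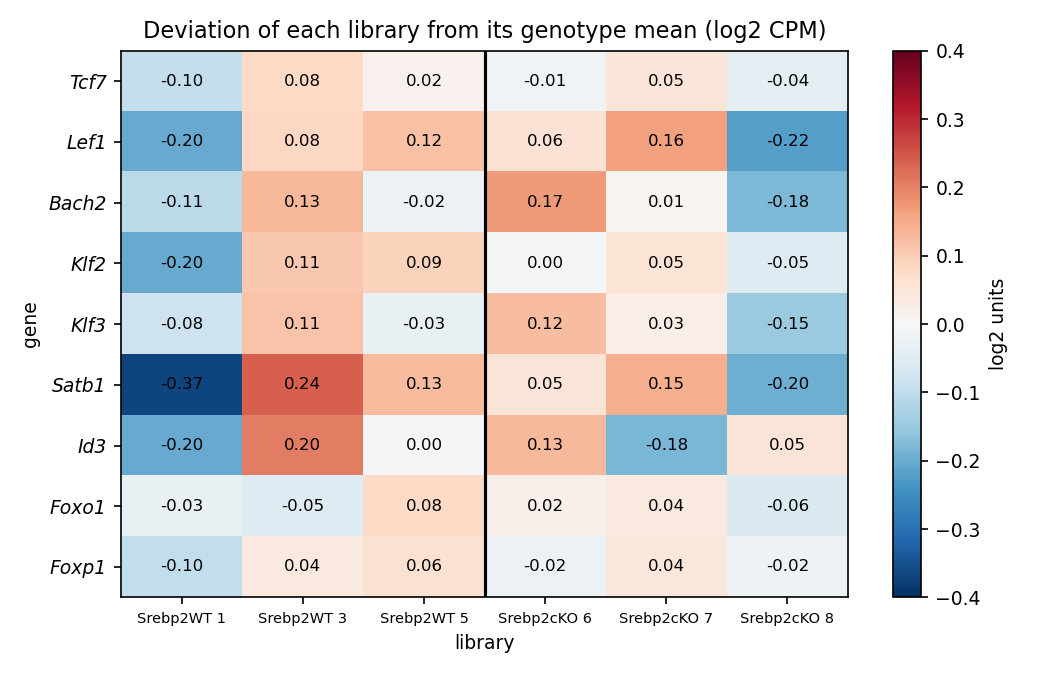
Deviation of each library from the mean of its genotype for the 9 factors, in log2 CPM, with Srebp2WT left of the line and Srebp2cKO right of it; blue is lower and red higher. The Srebp2WT replicate 1 column is blue throughout, deepest for Satb1 at -0.37, and Srebp2cKO replicate 8 is blue except for Id3.

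Conventional naive CD4 T cells express most of these factors, so their markers were measured too. Igfbp4 and Dapl1 among these markers are also on the list of genes that accompany TCF1 and LEF1, read below. The marker sum is therefore no separate reading of conventional naive cells. The 5 markers summed to 257 to 291 CPM in Srebp2WT and 295 to 333 CPM in Srebp2cKO, without overlap (exact two-sided permutation p = 0.1). Of the 4 tested, 0 passed in edgeR, 2 had an unadjusted p under 0.05, and DESeq2 and limma-voom called 0. Among all 11932 genes tested, edgeR called 6.61% and limma-voom 782, and 3471 had an unadjusted p under 0.05. DESeq2 called 12.2% of the genes to which it gave an adjusted p. Given these shares, 0 calls among 4 genes do not show that the markers were unchanged. All 4 had a positive log2 fold change (median 0.32), and the genotypes overlapped for each. Treml2 averaged 117 CPM in Srebp2WT and 149 in Srebp2cKO. In the same order Igfbp4 averaged 124 and 129 CPM and Dapl1 3.17 and 5.52 CPM. Cd40lg, a ligand of conventional helper cells, measured 23.2, 24.1 and 26.3 CPM in control replicates 1, 3 and 5 and 23.0, 27.7 and 39.5 CPM in deficient replicates 6, 7 and 8. The genotypes overlapped, and replicate 8 was the highest. Il2 never exceeded 5 counts. Among other lists, CD8 T cell markers summed to 7.25 ± 0.301 and 9.24 ± 0.895 CPM and stromal markers, nearly all Pecam1, to 174 ± 6.28 and 222 ± 7.33 CPM (exact two-sided permutation p = 0.1 for each). Pecam1 rose by the edgeR test, and Col1a1, the other stromal marker tested, was at a log2 fold change of -0.75 (adjusted p = 0.234). Of the natural killer markers tested, Klrb1c fell and Eomes was at 0.66 (adjusted p = 0.170). Natural killer cell markers (5.30 and 5.80 CPM), plasma cell markers (65.4 and 62.9 CPM) and erythroid markers (0.196 and 0.253 CPM) overlapped between the genotypes. Whether these cells had a part in the levels of the 9 factors was not tested.

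Fold changes in these libraries followed the GC content of transcripts, and the members were read against genes of like GC. Slopes with GC were fitted to log2 CPM minus each gene's mean over the 6 libraries, so each slope is relative to the other libraries. Per 10 points of GC these relative slopes were 0.15, 0.18 and 0.02 in control replicates 1, 3 and 5. They were 0.01, -0.25 and -0.12 in deficient replicates 6, 7 and 8. Of the 9 factors, 6 had a transcript GC below the median of tested genes, 49.5%, the side on which genes tended to be higher in Srebp2cKO. Klf2 was the clearest departure: its transcript GC was 61.6%, and tested genes within 1 point of it had a median log2 fold change of -0.29, against 0.46 for Klf2. Tcf7, at 52.3% GC, had 0.20 where genes of like GC had a median of -0.06. Foxp1 and Satb1, at 44.9% and 44.8%, had 0.38 and 0.53 where genes of like GC had 0.12. Klf3, at 45.7%, had 0.17 against 0.10, and Id3, at 55.6%, had -0.42 against -0.15.

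**Figure D4:**
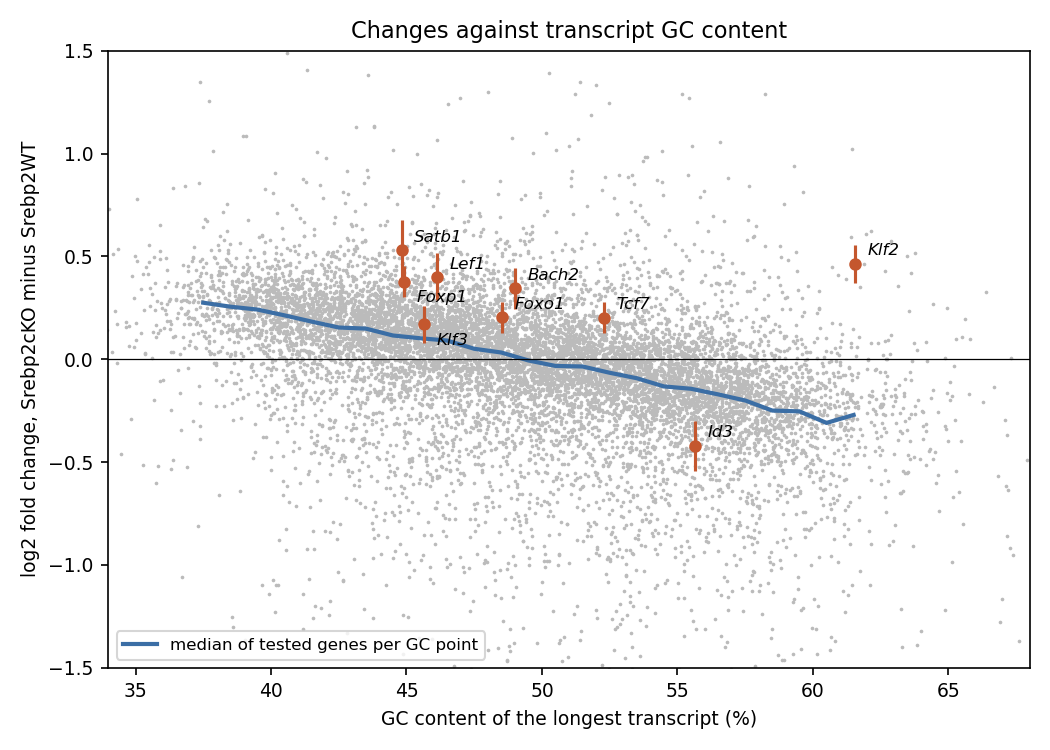
Log2 fold change (y axis, cut at 1.5 in each direction) against the GC content of the longest transcript (x axis, %); grey points are tested genes, the blue line is their median per point of GC, and orange points are the 9 factors with their SE. Klf2 lies far above the line at 61.6% GC, and Id3 is the 1 factor below it.

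The genes whose profiles over the 6 libraries were nearest to Klf2 and Foxp1 were found by the root mean square difference in centred log2 CPM, among 11198 genes compared. Nearest to Klf2 were Cytip (0.0350 log2 units), which encodes a cytohesin-binding protein of lymphocytes, Fam84b (0.0391) and Tle1 (0.0440), a Groucho corepressor. Cytip rose by 0.47 on the log2 scale (SE 0.10, edgeR adjusted p = 0.0239). Its call was lost without Srebp2WT replicate 1, Srebp2WT replicate 3 or Srebp2cKO replicate 7 (adjusted p = 0.0935, 0.0837 and 0.0588) and with the GC trend removed (log2 fold change 0.30, adjusted p = 0.0582). Nearest to Foxp1 were Ikzf1 (0.0216), the lymphoid factor Ikaros, the ribosomal protein gene Rpl12 (0.0235) and Nsg2 (0.0265). Ikzf1 rose from 502 ± 39.3 to 650.4 ± 20.3 CPM, by 0.37 on the log2 scale (SE 0.08, edgeR adjusted p = 0.0257), a call lost without Srebp2WT replicate 1, Srebp2WT replicate 3, Srebp2cKO replicate 7 or Srebp2cKO replicate 8 (adjusted p = 0.122, 0.108, 0.0610 and 0.0685). Likeness here is a description over 6 libraries that fall into 2 genotypes. The distance kept the difference between the genotypes, so genes near Klf2 or Foxp1 have a like log2 fold change by selection. The calls for Cytip and Ikzf1 are therefore no separate evidence.

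None of the 9 genes lies on chromosome 15, which holds Srebf2. Of the 18 tested genes that flank the factors on their chromosomes, 0 passed in edgeR, 8 had an unadjusted p under 0.05, DESeq2 called 2 and limma-voom called 0. Over all genes tested, edgeR called 6.61%, and 3471 of 11932 had an unadjusted p under 0.05. DESeq2 called 12.2% of those to which it gave an adjusted p, and limma-voom called 782 of 11932. Klf2 lies between Ap1m1 (log2 fold change 0.03, adjusted p = 0.832) and Eps15l1 (-0.06, adjusted p = 0.582). Bach2 lies 29.3 kb from Casp8ap2, which had a log2 fold change of 0.34 like Bach2 itself and did not pass (adjusted p = 0.0648).

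Relatives and partners of the factors were read from lists of the same families. Over all genes tested, edgeR called 6.61%, and 3471 of 11932 had an unadjusted p under 0.05. DESeq2 called 12.2% of the 11467 genes to which it gave an adjusted p, and limma-voom called 782 of 11932. Of 14 tested relatives and corepressors of TCF1, 0 passed in edgeR (median log2 fold change 0.07, 3 with an unadjusted p under 0.05, 0 by DESeq2 and by limma-voom), and the most abundant were Tle3 (-0.19) and Gsk3b (0.08). With the GC trend removed Tle3 was at -0.11 and Gsk3b at -0.01, and without Srebp2cKO replicate 7 Gsk3b was at -0.02. Of 11 other KLF family and CtBP genes, 0 passed (median -0.05, 4 with an unadjusted p under 0.05, 1 by DESeq2, 0 by limma-voom). Klf13 had 0.15 (0.29 and adjusted p = 0.0340 with the GC trend removed) and Klf6 0.45 (adjusted p = 0.0702), or 0.28 with the GC trend removed (adjusted p = 0.183). Of 4 tested ID and E protein genes, 0 passed (median -0.19, 2 with an unadjusted p under 0.05, 0 by DESeq2 and by limma-voom). Tcf3, which encodes E2A, had -0.33 (-0.06 with the GC trend removed), and Tcf12 had 0.05 (-0.08 in the same fit). Of 6 genes of BACH1, small MAF and NRF factors, 0 passed (median 0.20, 2 with an unadjusted p under 0.05, 1 by DESeq2, 0 by limma-voom). Bach1 had 0.30 (adjusted p = 0.0572) and Nfe2l1 had -0.10 (0.01 with the GC trend removed).

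Among 14 tested relatives of FOXO1 and FOXP1 and kinases that act on FOXO1, 2 rose and 0 fell (median 0.06). Over all genes tested, 2.37% rose and 4.24% fell, and 3471 of 11932 had an unadjusted p under 0.05. DESeq2 called 12.2% of the 11467 genes to which it gave an adjusted p, and limma-voom called 782 of 11932. Sgk3, a kinase, rose from 23.3 ± 2.79 to 34.5 ± 1.11 CPM, by 0.57 on the log2 scale (SE 0.11, edgeR adjusted p = 0.0171), a call lost without Srebp2WT replicate 1 or 3 (adjusted p = 0.0756 and 0.0689) and with the GC trend removed (log2 fold change 0.32, adjusted p = 0.0818). Of 19 other tested quiescence genes, such as the antiproliferative gene Btg1 (0.22, and 0.06 with the GC trend removed) and the T cell factor Ets1 (0.22), 0 passed in edgeR and by limma-voom (median 0.17), 7 had an unadjusted p under 0.05 and DESeq2 called 4.

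Of 11 tested genes, most of them receptors, that FOXO1 and KLF2 are known to control, 3 rose and 0 fell (median 0.23). The edgeR test called 2.37% of all genes tested higher and 4.24% lower. Ccr7, the chemokine receptor for entry into T cell zones, rose from 165 ± 16.1 to 225 ± 22.8 CPM, by 0.45 on the log2 scale (SE 0.10, edgeR adjusted p = 0.0281). Cd69, which opposes S1pr1 at the cell surface, also rose, by a log2 fold change of 0.53 (adjusted p = 0.0240). The calls for Ccr7 and Cd69 were lost without Srebp2WT replicate 1 (adjusted p = 0.119 and 0.110) and without Srebp2WT replicate 3 (0.106 and 0.112). Ccr7 also lost its call without Srebp2cKO replicate 8 (0.0614), and Cd69 without Srebp2cKO replicate 7 (0.0545) or replicate 8 (0.0693) and with the GC trend removed (log2 fold change 0.23, adjusted p = 0.150).

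Of 12 tested genes that accompany TCF1 and LEF1 in resting T cells, 4 rose and 1 fell (median 0.26). Calls over all genes tested were 2.37% higher and 4.24% lower. Ccr7, named above, was among the 4, with Nsg2 (log2 fold change 0.36, adjusted p = 0.0295) and the cytoskeletal gene Actn1 (0.39, adjusted p = 0.0490). Izumo1r, the folate receptor FR4 of Tregs, fell by 0.43 on the log2 scale (adjusted p = 0.0396). The calls for Nsg2 and Izumo1r were lost without Srebp2WT replicate 1, Srebp2WT replicate 3, Srebp2cKO replicate 7 or Srebp2cKO replicate 8, and that for Actn1 was kept only without Srebp2cKO replicate 6 (adjusted p = 0.0463). Izumo1r also lost its call with the GC trend removed (-0.25, adjusted p = 0.109), and Actn1 with upper-quartile scaling or total counts alone (adjusted p = 0.0521 and 0.0555).

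Effector transcription factors are the counterpart of the resting set in activated Tregs. Of 16 tested, 5 fell and 1 rose, where 4.24% of all genes tested fell and 2.37% rose. For 10 of the 16, all Srebp2cKO libraries lay below all Srebp2WT libraries, as for 15.5% of all genes tested. The median log2 fold change was -0.31. Prdm1, which encodes Blimp-1 and is a textbook target of BACH2 repression, averaged 39.2 ± 3.25 CPM with SREBP2 and 28.3 ± 0.0523 CPM without it. Prdm1 fell by 0.47 on the log2 scale (SE 0.09, edgeR adjusted p = 0.0194), and its call was lost without Srebp2WT replicate 1 (adjusted p = 0.103) or Srebp2cKO replicate 8 (0.0562). Rora, Batf and Nfil3 fell by 0.71, 0.64 and 0.84, and Bhlhe40, named after its values were seen, by 0.76 (adjusted p = 0.0225, 0.0257, 0.0310 and 0.0419). Of these calls, Rora was lost without Srebp2WT replicate 1 or Srebp2cKO replicate 7. Batf and Nfil3 were lost without Srebp2WT replicate 1, Srebp2WT replicate 3 or Srebp2cKO replicate 7, and Bhlhe40 without any of these or Srebp2cKO replicate 6 (adjusted p of 0.0574 to 0.175 over all of these fits). Batf was also lost with the GC trend removed (adjusted p = 0.0762).

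**Figure D5:**
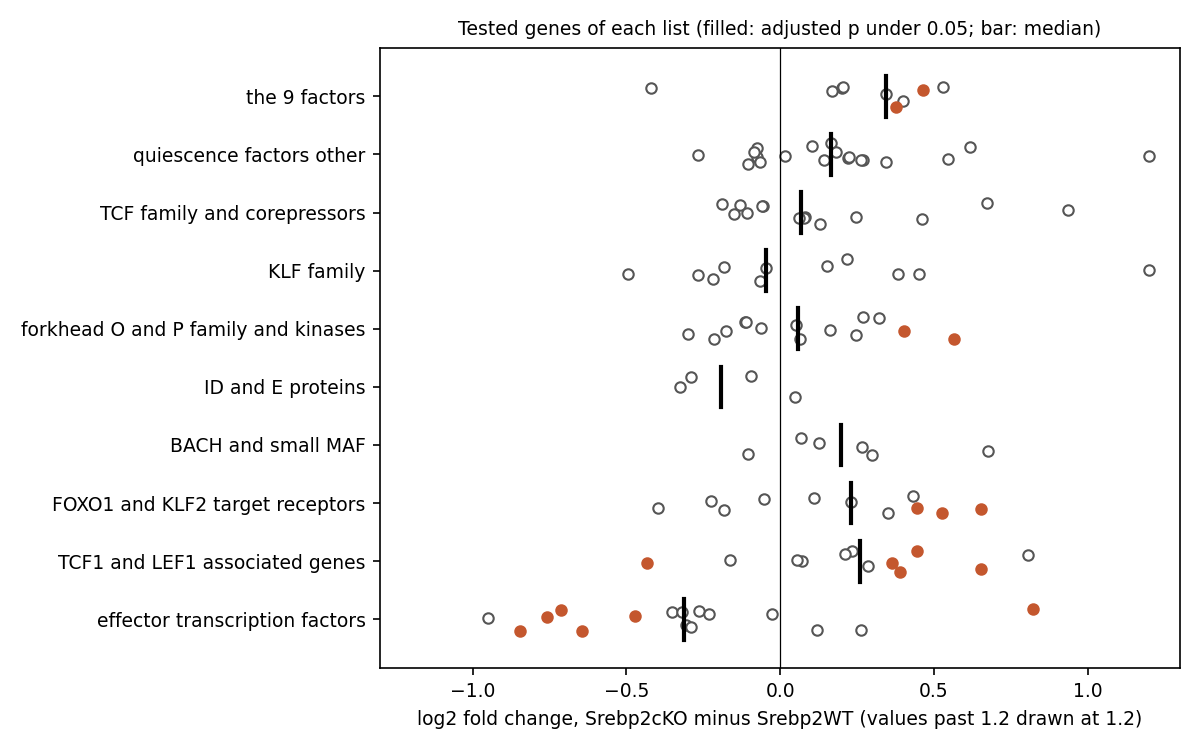
Log2 fold change (x axis, Srebp2cKO minus Srebp2WT) of the tested genes of the 9 factors and of each related list (rows); filled points passed the edgeR test and black bars are medians. The bar of the 9 factors stands at 0.34, and that of the effector factors at -0.31.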

How the data were processed

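RNA of 6 Treg libraries was extracted with a Qiagen kit and prepared with a KAPA kit that removes ribosomal RNA, per the labels' protocols. The authors deposited raw counts per gene symbol. HISAT2 2.2.1, Cell Ranger and mm10 are named, per the submitters' processing notes, without roles. The counter, annotation and strand setting were not given in the sources used here. Libraries of 1 genotype differed by more than counting noise (chi-square over its degrees of freedom at least 6.98), so none was taken as a library deposited again, and each was entered as 1 sample. This does not show that they are separate animals.

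Genes were kept by filterByExpr (11932 of 24421), scaled by TMM and tested with edgeR 4.0.16 in R 4.3.3 on the genotype of the 6 libraries. Benjamini-Hochberg adjustment ran over all genes tested, and the SE was the log2 fold change divided by the square root of F. On simulated counts of 11932 genes, of which 200 were changed, the test found 45% of changes of 0.5 and 86% of changes of 1 (log2). Of its calls there, 7.75% were wrong. The simulated noise was drawn gene by gene, without a GC trend or other effect shared within a library. These rates need not hold for the real libraries. CPM are TMM-scaled, and marker sums use total counts. Positions, lengths and GC came from GENCODE M21 (GRCm38), with GC for 96.0% of tested genes. No protein table was used here. Alternatives were other scalings and filters, DESeq2 1.42.0, limma-voom 3.58.1, a GC trend removed by loess (span 0.3), each library left out and, added after seeing the data, Rn45s left out.

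The factors and the lists (Tregs, B, myeloid, CD8 T, natural killer, naive CD4 T, plasma, erythroid and stromal markers, and 9 lists of related genes) were chosen with earlier results of these data known. Named genes were the 9 factors, up to 5 called genes with the smallest p of each related list or else its 2 most abundant, and the 3 genes nearest in profile to each factor that passed. Some genes of these lists enter the counts but are not reported here.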

Additional observations from a re-analysis of the deposited data

How the results depend on the processing

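Over the 16 other settings, the direction of each of the 9 factors stayed as reported. That was largely fixed in advance. The genotypes overlapped for Klf3 alone, so leaving out 1 library could hardly reverse the others. The setting at a false discovery rate of 0.1 reused the main fit. Between 0 and 3 of the 9 passed when 1 library was left out, and 6 passed with DESeq2, with no filter on low counts and at a false discovery rate of 0.1. Over all genes, 167 to 1487 passed when 1 library was left out: 167 and 184 without Srebp2WT replicates 1 and 3, 1082 without replicate 5, and 1487, 298 and 439 without Srebp2cKO replicates 6, 7 and 8. DESeq2 called 1404, no filter 1205 and the looser rate 1893. With total counts alone 184 were higher and 570 lower, against 283 and 506 with TMM. The cause of these shifts was not tested. No paired analysis was possible because the genotypes share no replicate number. Id3, with the fewest counts, and the 3 libraries per genotype limit precision.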
